A study of Mus musculus with 4 samples.

Results

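The genes described here are 7 amino acid transporter genes (Slc7a5, Slc3a2, Slc38a1, Slc38a2, Slc1a5, Slc7a6 and Slc7a1) and 3 genes of the MYC family and its partner (Myc, Mycn and Max). They were chosen by name and not by a cut on their measured values, though earlier results of these data were known. They are 10 of the 55536 mouse genes in the deposited tables. All 10 symbols were found. Their levels were measured by total RNA-seq in primary T cells from the spleen of adult male B6CASTF1/J mice, an F1 cross of a C57BL/6 dam with a CAST/EiJ sire, at an age of 66 days. CD3, part of the T cell receptor complex, is the antigen in their description, and no treatment is named, so there is 1 group of 4 libraries, called libraries 1 to 4 after their replicate numbers. Each was made from 300 ng of RNA with ERCC spike-in RNAs added. The samples carry biological replicate numbers and a donor identifier that all 4 share, with no word on whether they are separate animals, so SDs and p-values measure only the spread between these samples, which may be technical.

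As background, T cells import amino acids to build protein when they leave the resting state, and the uptake of leucine and other large neutral amino acids feeds the kinase complex mTORC1. MYC is a transcription factor that binds DNA as a dimer with MAX, and in activated T cells it drives growth and the production of several amino acid transporters. Transporter activity is in turn needed for MYC protein to accumulate in those cells.

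The libraries held 14584388 to 17335895 estimated counts. The T cell label fitted the markers, since 18 of 18 T cell markers exceeded 10 TPM (transcripts per 1000000 transcripts, a level per transcript length) in every library and their mean log2(TPM + 1) was 7.60 ± 0.035 (SD, n = 4). Library 4 stood apart in B cell and erythroid markers. The summed level of 15 B cell markers reached 368 TPM in library 4, against 153 to 164 TPM elsewhere. Of 10 B cell markers tested, 9 were variable between libraries, where 1.4% of all tested genes were. The summed level of 10 erythroid markers reached 637 TPM in library 4, against 17.4 to 64.1 TPM elsewhere. Library 2 was high in neutrophil markers, with a sum of 39.8 TPM against 12.1 to 14.8 TPM. Library 1 was low in early response genes, whose summed level was 1216 TPM, against 1389 to 1508 TPM in libraries 2 to 4. In bulk RNA, fewer cells of a type and less RNA per cell cannot be told apart.

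For description, the members above Mycn are put into 3 sets by mean TPM. Max and Slc3a2 lay at about 67 TPM, 5 genes (Slc38a1, Slc38a2, Slc1a5, Myc and Slc7a1) had means of 36.3 to 54.2 TPM, Slc7a5 and Slc7a6 had 20.0 and 14.2 TPM, and Mycn was near the detection floor. The sets are not all marked by gaps, as the step from Slc7a5 to Slc7a6 (0.49 on the log2 scale) exceeded that from Slc3a2 to Slc38a1 (0.31). The plot of the 10 levels shows the 4 libraries close together for every gene but Mycn.

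**Figure D1:**
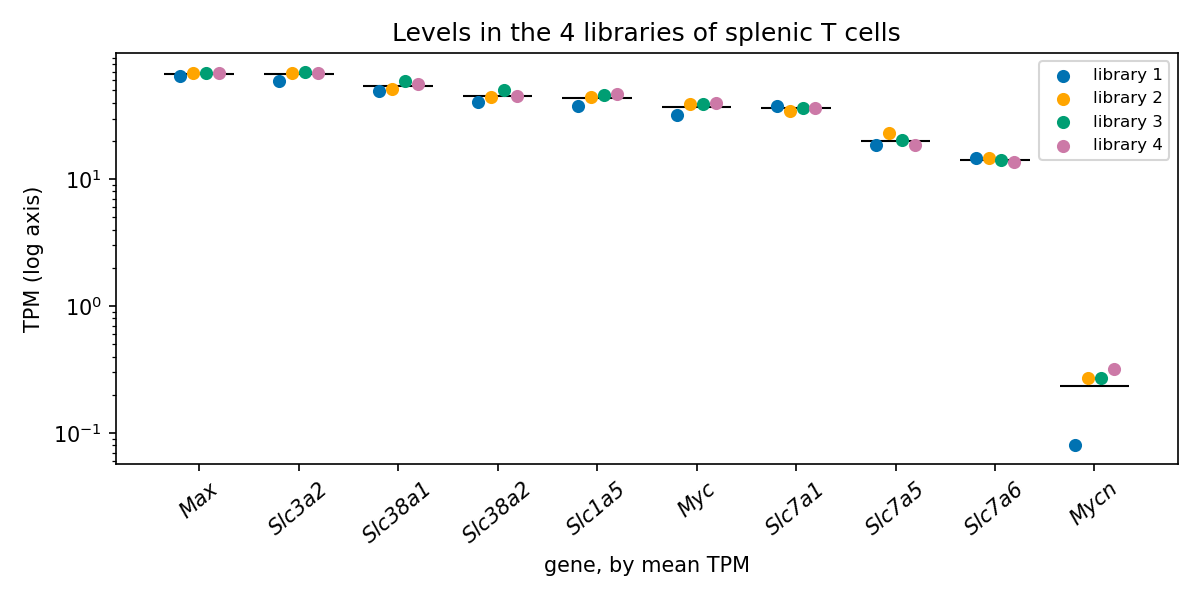
Level of each gene in TPM (log axis) in the 4 libraries (coloured points), with the mean as a black bar, genes ordered by their mean. Points of a gene lie close together, from 64.8 to 68.7 TPM for Max and from 13.6 to 14.7 TPM for Slc7a6, while Mycn lies between 0.08 and 0.32 TPM.

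Slc3a2 encodes CD98, the heavy chain that carries several transporter light chains to the plasma membrane, and Slc7a5 encodes LAT1, the light chain that exchanges large neutral amino acids such as leucine. Slc3a2 (chromosome 19, 8706882 to 8723369, minus strand of mm10) had 59.8, 69.0, 70.2 and 68.9 TPM in libraries 1 to 4, from 1466 to 1915 estimated counts. Slc7a5 (chromosome 8, 121881150 to 121907694, minus strand) had 18.5, 23.0, 20.2 and 18.5 TPM, from 670 to 915 counts. The lowest Slc3a2 value was in library 1, and every Slc3a2 value was above every Slc7a5 value. Within a library the log2 ratio of Slc3a2 to Slc7a5 was 1.69, 1.59, 1.80 and 1.90, a mean of 1.74 ± 0.13 (SD, n = 4), or 3.35-fold. Slc3a2 was higher in 4 of 4 libraries, and the exact permutation test that flips the sign of each library's ratio gave a two-sided p = 0.13. With 4 libraries this test cannot give a smaller p, so none of the ratios tested could pass 0.05, and after Benjamini-Hochberg adjustment over 7 ratios the p was also 0.13.

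Slc7a6 encodes y+LAT2, another CD98 light chain, which exchanges cationic for neutral amino acids. It lies on chromosome 8 between 106168857 and 106198706 (plus strand) and had 14.6, 14.7, 14.0 and 13.6 TPM, from 582 to 656 counts. It was below Slc7a5 in 4 of 4 libraries, with a mean log2 ratio of Slc7a6 to Slc7a5 of -0.49 ± 0.13 (SD, n = 4; exact sign-flip permutation p = 0.13). In the second deposited quantification Slc7a5 was higher in 3 of 4 libraries, by a mean log2 ratio of only 0.12. The order of these light chains is therefore less firm than that of heavy over light chain. Slc7a6-201, the full-length coding transcript, had 7.34 ± 0.620 TPM and the intron-retaining Slc7a6-207 had 2.37 ± 0.595 TPM (SD, n = 4). Slc7a6-205, an incomplete coding transcript, was listed at 0 TPM in library 1 and at 2.29 to 4.88 TPM in the others, from a mean of 22.4 counts, so the smaller forms of this gene are poorly resolved.

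The 6 light chains known to pair with CD98 were also summed, a set put together after the values had been seen and given without a test. Slc7a5 and Slc7a6 made up nearly all of the sum, since Slc7a7 averaged 0.543 TPM, Slc7a10 0.278 TPM, Slc7a8 0.118 TPM and Slc7a11, the cystine exchanger xCT, 0.0425 TPM. The sum was 34.5, 39.1, 34.9 and 32.4 TPM in libraries 1 to 4, which was 52.8% ± 5.22 of the Slc3a2 level (SD, n = 4). The RNA of the shared heavy chain thus exceeded that of its listed light chains together in each library.

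The next group carries glutamine and other small neutral amino acids. Slc38a1 and Slc38a2 encode SNAT1 and SNAT2, sodium-coupled importers that lie side by side on chromosome 15, and Slc1a5 encodes ASCT2, a sodium-dependent exchanger. Slc38a1 (96571418 to 96642913, minus strand) had 49.8, 51.2, 59.3 and 56.4 TPM, from 3473 to 4105 counts. Slc38a2 (96687392 to 96699730, minus strand) had 40.6, 44.6, 50.1 and 45.5 TPM, from 3250 to 4063 counts. Their ranges overlapped at a single point, the Slc38a2 value of library 3, but Slc38a2 was below Slc38a1 within each library, with a mean log2 ratio of Slc38a2 to Slc38a1 of -0.26 ± 0.05 (SD, n = 4; exact sign-flip permutation p = 0.13). Both genes were highest in library 3 and lowest in library 1.

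Slc1a5 (chromosome 7, 16781340 to 16798274, plus strand) had 37.5, 44.7, 46.4 and 46.7 TPM, from 1265 to 1628 counts. Its level was 2.19 times that of Slc7a5, with log2 ratios of Slc1a5 to Slc7a5 of 1.02, 0.96, 1.20 and 1.34 and a mean of 1.13 ± 0.17 (SD, n = 4; exact sign-flip permutation p = 0.13). Most of this level was not assigned to the annotated coding transcript. Slc1a5-201, the only transcript with the whole coding frame, had 12.5 ± 1.31 TPM, while Slc1a5-202, which is annotated as retaining an intron, had 17.8 ± 1.47 TPM (SD, n = 4 each). Slc1a5-202 was above Slc1a5-201 in 4 of 4 libraries, taking 59.1%, 57.9%, 61.1% and 57.4% of the pair, and 59.1% ± 3.03 in the second quantification. A shorter intron-retaining transcript, Slc1a5-208, added 8.09 ± 2.03 TPM from a mean of 49.7 counts.

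Slc1a5-202 keeps intron 7, which is 71 bases long (chr7:16795953-16796023, plus strand, mm10, from the GENCODE M21 transcripts). It is shown with 15 exon bases on either side because it is the stretch by which Slc1a5-202 departs from the coding frame of Slc1a5-201. The transcripts also differ in their first base, at 16781368 for Slc1a5-202 and 16781340 for Slc1a5-201. Capitals mark the intron.
Slc1a5 intron 7: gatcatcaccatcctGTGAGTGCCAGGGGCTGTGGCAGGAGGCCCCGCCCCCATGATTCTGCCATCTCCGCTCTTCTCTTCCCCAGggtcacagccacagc
The intron begins with GT and ends with AG. Read in frame from the ATG of Slc1a5-201, Slc1a5-202 meets a TGA stop that begins at base 2 of the intron, after 432 codons, where Slc1a5-201 has 555 codons. Whether RNA of this form is translated or degraded was not measured.

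Slc7a1 encodes CAT1, the importer of arginine and lysine. The gene (chromosome 5, 148327410 to 148399904, minus strand) had 37.9, 34.3, 36.4 and 36.5 TPM, from 2028 to 2331 counts, and it was the one member with its highest level in library 1. It exceeded Slc7a6, the other carrier of cationic amino acids among the members, in every library, with a mean log2 ratio of Slc7a6 to Slc7a1 of -1.35 ± 0.09 (SD, n = 4; exact sign-flip permutation p = 0.13). The level of Slc7a1 was also assigned to more than 1 kind of annotated transcript. Slc7a1-201, which holds the complete coding frame, had 12.9 ± 0.311 TPM. Slc7a1-204, a single exon of 2232 bases annotated as intron-retaining, had 18.1 ± 1.11 TPM (SD, n = 4 each) and was above Slc7a1-201 in 4 of 4 libraries in both quantifications. It lies wholly inside intron 1 of Slc7a1-201, an intron of 34477 bases, and begins 6080 bases beyond exon 1. The first base of another coding transcript, Slc7a1-202, falls within it. A read from Slc7a1-204 therefore shares no sequence with Slc7a1-201.

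Myc was well expressed and Mycn was not. Myc (chromosome 15, 61985391 to 61990374, plus strand) had 31.9, 38.9, 38.9 and 39.4 TPM, from 1071 to 1367 counts, with library 1 below the others. Mycn, its relative best known from neural and embryonic tissue (chromosome 12, 12936093 to 12941914, minus strand), had 0.08, 0.27, 0.27 and 0.32 TPM, from 3, 12, 11 and 12 counts. A floor of 3 counts is 0.174 to 0.206 counts per 1000000 counts (CPM) in these libraries, so Mycn in library 1 was at the floor. The ratio of Myc to Mycn was 398 in library 1, with an exact 95% binomial interval of 136 to 1934, and 144, 144 and 123 in libraries 2 to 4, and these intervals cover counting error only. The mean log2 ratio was 7.48 ± 0.78 (SD, n = 4; exact sign-flip permutation p = 0.13). Mycl, the remaining MYC family member, averaged 0.170 TPM.

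All annotated Myc transcripts code for protein. Myc-201 and Myc-205 have identical sequences of 2338 bases, and the quantification gave them equal levels of 8.76 ± 0.625 TPM each (SD, n = 4). They differ in the annotated start of the frame alone, since Myc-205 starts at an ATG and has 439 codons, and Myc-201 starts upstream at a CTG and has 454 codons. RNA levels cannot tell these starts apart. The start of the longer frame in exon 1 (chr15:61985922-61985951, plus strand, mm10, from the GENCODE M21 transcripts) is shown because it holds the upstream start. The added frame runs on into the next exon before the ATG, and those bases are not shown. Capitals mark the CTG.
Myc upstream start: CTGgatttcctttgggcgttggaaaccccg
Myc-202 and Myc-204, both with the shorter frame, had 7.43 ± 1.65 and 11.2 ± 1.98 TPM (SD, n = 4). The quantifications disagreed on how the rest of the gene was shared out, as the second one gave Myc-202 0 TPM and Myc-206 8.09 ± 2.05 TPM, where the first gave Myc-206 0.005 TPM. The split of Myc among its overlapping transcripts is uncertain for that reason. The gene's total differed as well, with 47.1 ± 5.81 TPM in the second quantification and 37.3 ± 3.61 TPM in the first (SD, n = 4 each).

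Max (chromosome 12, 76937269 to 76962201, minus strand) had 64.8, 68.4, 68.3 and 68.7 TPM, from 1203 to 1409 counts, with the smallest coefficient of variation of the members (2.74%). It exceeded Myc in each library, with log2 ratios of Max to Myc of 1.02, 0.82, 0.81 and 0.80, a mean of 0.86 ± 0.11 (SD, n = 4; exact sign-flip permutation p = 0.13), or 1.82-fold. MAX protein comes in a short and a long form that differ by a small exon ahead of the DNA-binding region. Max-201, with 151 codons, had 24.4 ± 3.27 TPM, and Max-202, with 160 codons, had 11.4 ± 2.78 TPM (SD, n = 4). The exon that Max-202 adds is 27 bases long (chr12:76961263-76961289, minus strand, mm10, from the GENCODE M21 transcripts). It is shown in capitals with 15 bases of each neighbouring exon, because it is the coding difference between the forms, whose ends also differ by some bases.
Max-202 exon: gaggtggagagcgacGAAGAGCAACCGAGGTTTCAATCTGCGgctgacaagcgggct
Max-202 made up 35.9%, 34.6%, 20.3% and 37.2% of the pair in libraries 1 to 4, so library 3 was low. In the second quantification the shares were 46.9%, 12.7%, 37.8% and 31.3%, and library 2 was low instead. The short form was higher in 4 of 4 libraries in both, while the differences between libraries did not hold across quantifications.

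The rest of the Max level was assigned mostly to transcripts that do not code for full MAX. The coding Max-205, with 124 codons, had 1.43 TPM in library 3 and was listed at 0 TPM in the other libraries, while the second quantification gave it a mean of 5.30 ± 4.18 TPM (SD, n = 4). Max-203, a single-exon transcript annotated as intron-retaining, had 13.5 ± 1.55 TPM and the non-coding Max-207 had 7.24 ± 0.660 TPM (SD, n = 4). Max-206, a fragment of 203 bases annotated for nonsense-mediated decay, was given 9.05 ± 0.943 TPM from a mean of only 15.3 counts, and the second quantification gave it 0 TPM. Gm47218 lies on the same strand inside Max (9.49 ± 1.53 TPM), and Gm20388 spans Slc7a5 on the opposite strand (6.00 ± 3.03 TPM). Strand cannot tell reads of Gm47218 and Max apart, so this pair may not be fully separated. Whether counting used the strand is not given in the sources used here, so the same may hold for Gm20388 and Slc7a5.

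The share of each gene's TPM in intron-retaining transcripts differed widely among the members. It was 70.5% ± 2.83 for Slc1a5, 56.0% ± 1.58 for Slc7a1, 51.7% ± 4.72 for Slc38a1 and 33.2% ± 4.77 for Slc7a5. It was lower by TPM in Slc38a2 (21.6% ± 1.43), Max (20.0% ± 2.54), Slc7a6 (18.8% ± 4.59) and Slc3a2 (9.45% ± 1.61; SD, n = 4 for all), and Myc and Mycn have no such transcript in the annotation. For comparison, the median over 6109 protein-coding genes with an annotated intron-retaining transcript and at least 1 TPM in every library was 26.8%, with quartiles of 14.5% and 41.2%. A higher share than that of Slc1a5 was found in 3.45% of these genes, against 10.5% for Slc7a1, 13.8% for Slc38a1 and 85.0% for Slc3a2. The members thus covered most of the range found in other genes. In this total RNA, whether reads assigned to intron-retaining transcripts come from finished or unspliced RNA was not tested.

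The second quantification gave like shares for Slc1a5 (69.7%), Slc7a1 (57.8%) and Slc38a1 (51.7%), and a lower one for Slc7a5 (15.6%). Short transcripts weigh more in TPM than in reads. By estimated counts the intron-retaining share was 62.3% for Slc1a5, 31.5% for Slc7a1, 39.6% for Slc38a1, 26.7% for Slc38a2 and 7.07% for Slc7a5, against a median of 16.1% over the same 6109 genes. By counts a higher share was found in 5.09% of genes for Slc1a5, 16.7% for Slc38a1, 24.3% for Slc7a1, 30.8% for Slc38a2 and 74.3% for Slc7a5, so Slc38a2 lay above the median by counts and below it by TPM. The value for Slc7a5 rests on Slc7a5-202, a transcript of 618 bases with a mean of 57.4 counts. In Slc38a1 the largest such transcript was Slc38a1-204, a single exon of 3722 bases with 17.3 ± 3.26 TPM, more than the 14.5 ± 0.587 TPM of the full-length Slc38a1-201 (SD, n = 4). The other Slc38a1 transcripts with at least 10% of the gene in either quantification were the coding Slc38a1-207 and Slc38a1-203, with 6.76 ± 1.09 and 4.35 ± 0.221 TPM, and the intron-retaining Slc38a1-206 and Slc38a1-205, with 5.62 ± 0.440 and 5.19 ± 0.974 TPM. The frame of Slc38a1-207 has only 72 codons, where Slc38a1-201 and Slc38a1-203 have 485. In Slc38a2 the intron-retaining transcript was Slc38a2-202 with 9.76 ± 0.915 TPM, below the 35.4 ± 3.31 TPM of Slc38a2-201. Slc3a2 was mostly coding, but its coding transcripts were shared out unlike in the quantifications: Slc3a2-202 took 14.3% ± 1.10 of the pair with Slc3a2-201 in the first and 62.1% ± 28.6 in the second. Slc3a2-201 had 37.6 ± 2.12 TPM and Slc3a2-207, which has a shorter frame of 303 codons, 14.4 ± 3.57 TPM in the first (SD, n = 4), against 13.6 ± 12.4 and 45.9 ± 14.7 TPM in the second. Slc3a2-208, an incomplete coding transcript, was given 0 TPM in the first and 21.2 ± 13.1 TPM in the second. The total of Slc3a2 also differed between the quantifications, by more than for any other member (117 ± 16.4 TPM in the second).

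**Figure D2:**
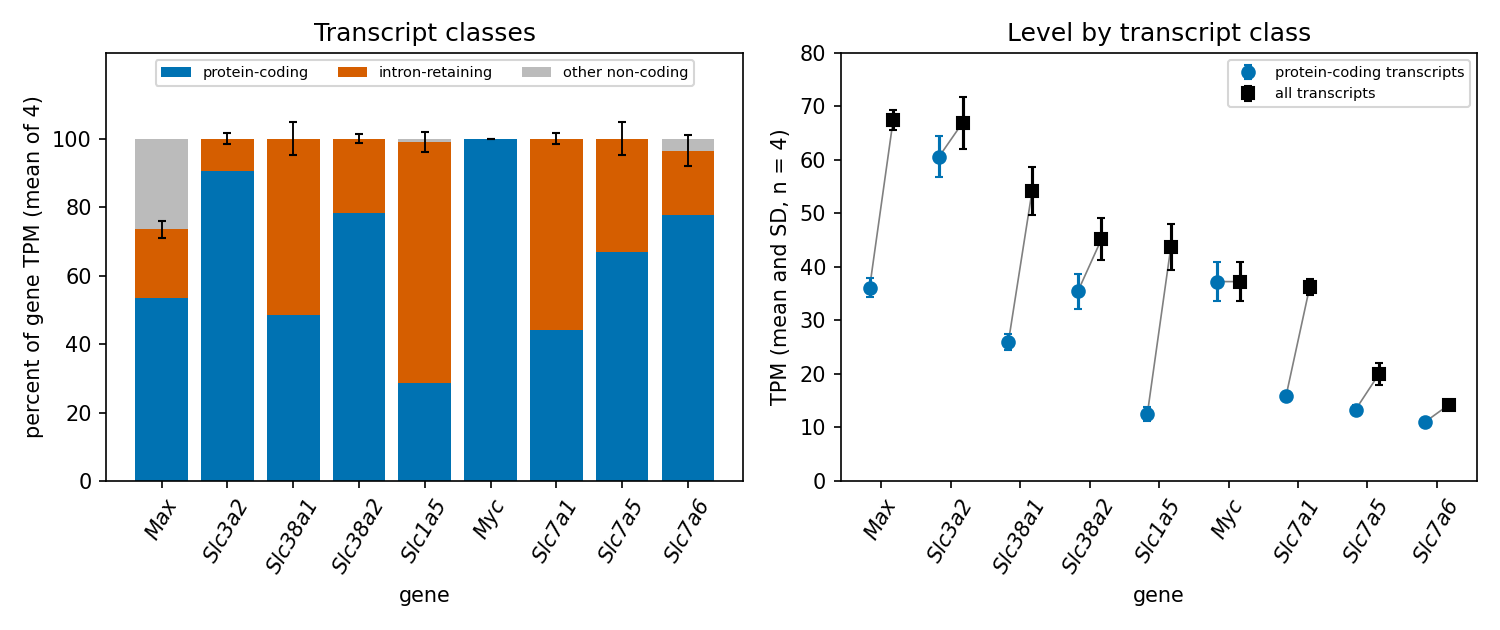
Left, the percent of each gene's TPM in protein-coding, intron-retaining and other non-coding transcripts (stacked bars, mean of 4 libraries, error bars the SD of the intron-retaining share), and right, the gene level in TPM over protein-coding transcripts (circles) and over all transcripts (squares), mean and SD, n = 4. Mycn is left out because of its low level. Intron-retaining transcripts took 70.5% of Slc1a5, whose level was 12.5 TPM over coding and 43.8 TPM over all transcripts, while the Myc points coincide at 37.3 TPM.

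Counting coding transcripts alone changed the order of the members. Slc3a2 led with 60.6 ± 3.84 TPM, followed by Myc with 37.3 ± 3.61, Max with 36.2 ± 1.84, Slc38a2 with 35.4 ± 3.31 and Slc38a1 with 26.1 ± 1.49 TPM. Slc7a1 had 16.0 ± 0.736, Slc7a5 13.3 ± 0.840, Slc1a5 12.5 ± 1.31 and Slc7a6 11.0 ± 0.764 TPM (SD, n = 4 for all). These sums take in every transcript annotated as coding, short and incomplete frames included. The complete Slc7a1-201 alone had 12.9 TPM, against 13.3 TPM for Slc7a5-201, so the order of that pair rests on smaller forms. In the second quantification Slc3a2-201 and Slc3a2-202 had 13.6 and 15.1 TPM, each below Myc with 47.1 TPM, so the lead of Slc3a2 there rests on its other coding transcripts. Myc moved from rank 6 of the 10 genes to rank 2 in both quantifications, and Slc1a5 from rank 5 to rank 8, or to rank 9 in the second quantification. With coding transcripts, 3 of the 7 ratios changed sign. Slc38a2 was above Slc38a1, with a log2 ratio of 0.44 ± 0.14 (SD, n = 4) and exact sign-flip permutation p = 0.13. Slc1a5 did not differ from Slc7a5 beyond the spread (-0.10, p = 0.375), nor Max from Myc (-0.04, p = 0.375), in the same exact permutation test.

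**Figure D3:**
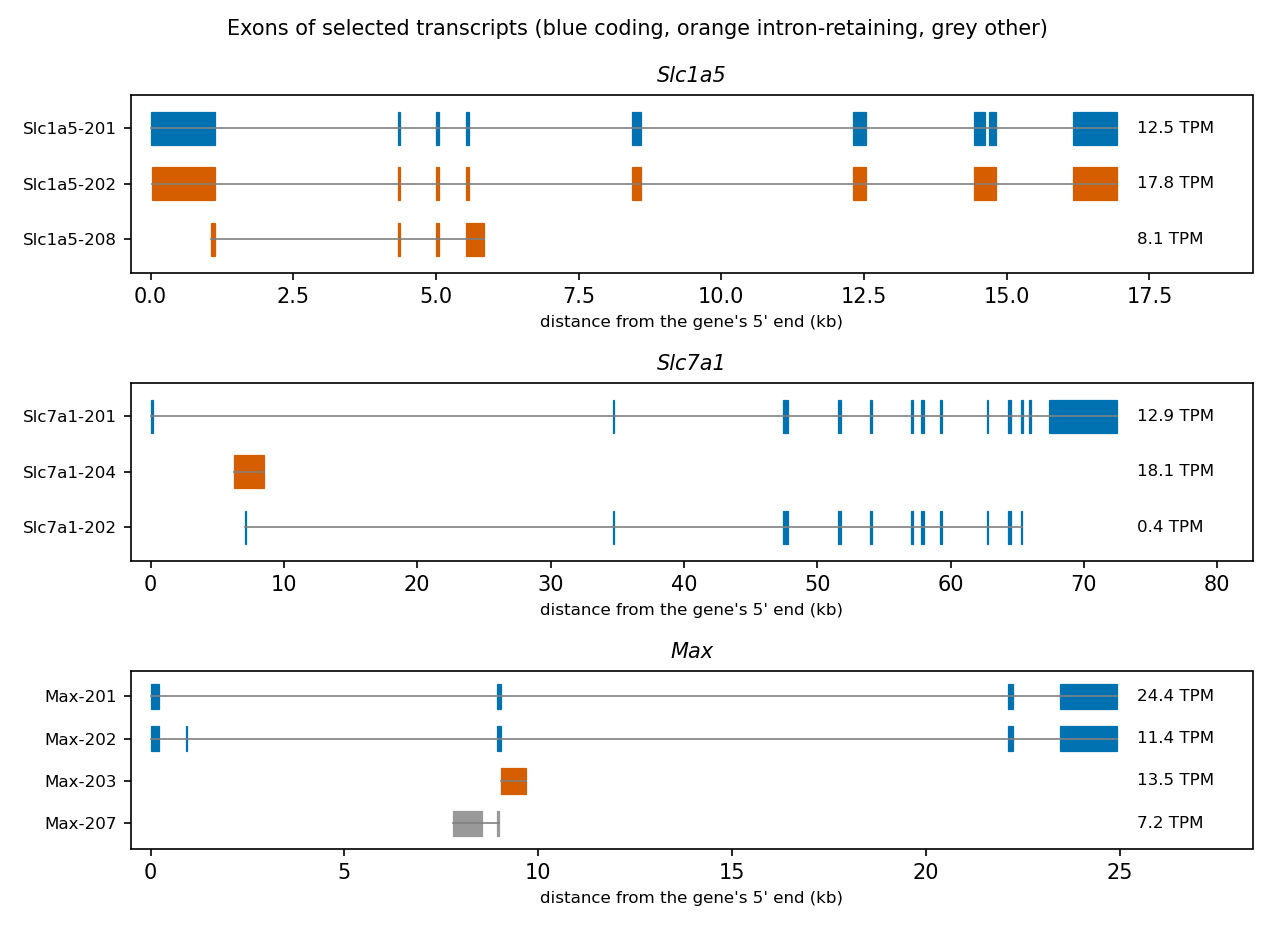
Exons (boxes) and introns (lines) of selected transcripts of Slc1a5, Slc7a1 and Max against the distance in kb from the 5' end of the gene, each with its mean TPM at the right, blue for protein-coding, orange for intron-retaining and grey for other transcripts. Slc1a5-202 (17.8 TPM) joins a pair of exons near 15 kb that are separate in Slc1a5-201 (12.5 TPM), and Slc7a1-204 (18.1 TPM) is 1 box inside the first intron of Slc7a1-201 (12.9 TPM).

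Over all transcripts, not every step in the order of levels exceeded the spread. Max and Slc3a2 could not be ranked, as Max was higher in 1 of 4 libraries with a log2 ratio of 0.01 ± 0.07, and in the second quantification Slc3a2 was higher in 4 of 4. Slc3a2 lay above Slc38a1 by 0.31 ± 0.09 on the log2 scale without overlap. Slc38a2 and Slc1a5 were level, with a difference of 0.05 ± 0.08 and Slc38a2 higher in 2 of 4 libraries, and so were Myc and Slc7a1, with 0.03 ± 0.19 and Myc higher in 3 of 4. Slc1a5 exceeded Myc within every library by 0.23 ± 0.02, although their ranges overlapped. The widest step above Mycn was from Slc7a1 down to Slc7a5, 0.86 ± 0.20 on the log2 scale (SD, n = 4 for all), with no overlap. Among 22028 protein-coding genes, 3.59% had a higher mean TPM than Max, 3.65% than Slc3a2, 8.28% than Myc, 16.2% than Slc7a5, 21.5% than Slc7a6 and 53.4% than Mycn.

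Levels of the members varied little between the 4 libraries. Variation was tested for each gene with edgeR's goodness-of-fit test on the estimated counts, with Benjamini-Hochberg adjustment. The test called 183 of 13118 genes, or 1.4%, at an adjusted p below 0.05, and 0 of the 9 members tested, and DESeq2's dispersion trend also called 0 members. At an unadjusted p below 0.05 stood 0 of 9 members, where 4.6% of all tested genes did. Mycn did not pass the filter on low counts and is not among the 9. The lowest unadjusted p of a member in this edgeR fit was 0.312 for Slc38a2 and the highest 0.995 for Max. With 9 genes a share of 1.4% predicts less than 1 call, so the count of 0 does not set the members apart from other genes. The range of log2 CPM across libraries was 0.03 for Max and 0.25 for Slc7a5, with a median over the 9 of 0.21, against a median of 0.27 over all tested genes and of 0.17 over the 4147 tested genes within the members' range of TPM.

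**Figure D4:**
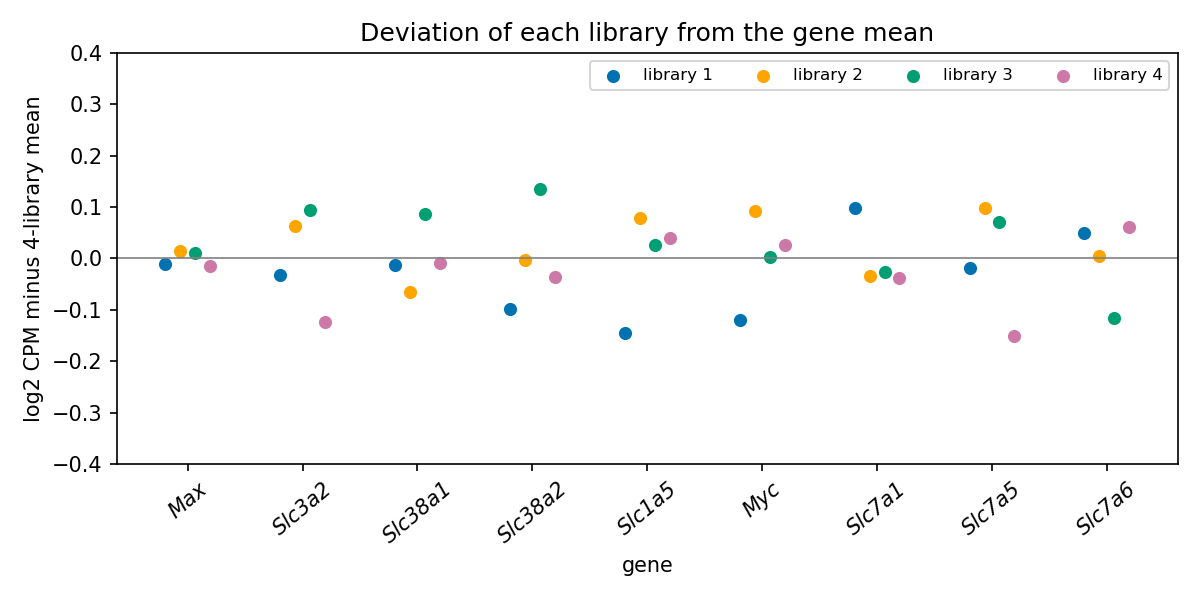
Deviation of log2 CPM in each library (coloured points) from the mean of the 4 libraries for the 9 members tested, in the order of their mean TPM. The point farthest from 0 is Slc7a5 in library 4, at -0.15, and library 1 is the lowest point for 3 genes and the highest for 1.

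By TPM, library 1 was the lowest for 8 of the 10 members, with Slc7a1 and Slc7a6 as the exceptions and Slc7a5 tied with library 4, and the 7 transporters together had 259, 281, 297 and 286 TPM in libraries 1 to 4. Much of this depended on the scale. Protein-coding genes held 34.6% of TPM in library 1, against 35.6% to 36.1% in libraries 2 to 4. Over the total of protein-coding genes, library 1 was the lowest for 6 of 10, and on log2 CPM scaled by TMM (trimmed mean of M values, edgeR's scaling between libraries) for 3 of 9, as the plot of deviations shows. Library 1 was also the library low in early response genes, with a list deviation of -0.28 on log2 CPM. Of these genes, 3 of 16 tested were variable (Fos, Fosb and Hspa1b), where 1.4% of all tested genes were. In library 4, high in B cell and erythroid markers, 4 of 9 members had their lowest log2 CPM, among them Slc7a5 and Slc3a2. The share of all tested genes that were lowest in library 1 or in library 4 is not given here. These counts therefore do not set the members apart from other genes. The part of the early response, B cell and erythroid genes in the members' values was not tested.

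Most other amino acid transporters were at lower levels, but not all. Of 46 further plasma membrane and organelle transporters from the SLC families, 10 had at least 1 TPM in every library and 13 were listed at 0 in all. The median of their mean levels was 0.0888 TPM, against 40.5 TPM over the 10 members, which include Myc, Mycn and Max besides the transporters. The highest were Slc6a6, the taurine transporter, with 39.3 ± 5.39 TPM, Slc38a10 with 32.7 ± 2.54 TPM and Slc6a19, a neutral amino acid transporter known from kidney and gut, with 24.7 ± 2.47 TPM (SD, n = 4). The edgeR goodness-of-fit test called 0 of the 14 tested, with 0 at an unadjusted p below 0.05. At 1.4% over all tested genes, less than 1 call is expected among 14. Slc6a6 had a mean above the 36.3 TPM of Slc7a1 and was above Slc7a5 in every library, and Slc38a10 and Slc6a19 had means above that of Slc7a5. The mean of Slc43a2, 23.1 ± 2.97 TPM, was also above that of Slc7a5, with overlapping ranges.

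Of 11 genes of the network around MYC and MAX, 8 had at least 1 TPM in every library. The edgeR test called 0 of the 8 tested, with 0 at an unadjusted p below 0.05, and at the 1.4% found over all genes less than 1 call is expected among so few. Mga, a MAX partner that opposes MYC, had 33.5 ± 3.95 TPM, Mxd4, a MAX partner of the MXD repressor family, 29.8 ± 2.79 TPM, and Mlxip, which pairs with the MAX-like factor MLX, 26.6 ± 2.84 TPM (SD, n = 4). Each was below Myc and below Max on average. Of 22 growth genes linked to MYC, such as ribosome assembly and translation factors, all had at least 1 TPM in every library. The edgeR test called 0 of 22, with 1 at an unadjusted p below 0.05, against 1.4% and 4.6% of all tested genes. Eif4a1, an RNA helicase of translation initiation, led with 298 ± 9.57 TPM, followed by the nucleolar genes Npm1 with 266 ± 3.68 and Ncl with 179 ± 8.48 TPM (SD, n = 4).

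The sensing side of the pathway was present as well. Of 31 genes of mTORC1 and its amino acid sensors, 30 had at least 1 TPM in every library. The edgeR test called 0 of 31, with 0 at an unadjusted p below 0.05. Over all tested genes the shares were 1.4% and 4.6%, so less than 1 adjusted call is expected among 31. Sesn3, a sestrin of the family that restrains mTORC1, had 55.4 ± 6.59 TPM, Rptor, the subunit that defines mTORC1, 31.8 ± 2.74 TPM and Sec13, a part of the GATOR2 complex, 30.7 ± 2.26 TPM (SD, n = 4). Snhg1, a non-coding gene that starts 105 bases from Slc3a2 on the opposite strand, had 121 ± 7.52 TPM, above Slc3a2 in every library. That distance is to the first base of Slc3a2-202, at 8723369 (6.29 TPM in the first quantification). Slc3a2-201 (37.6 TPM) starts farther away, at 8713879. Pvt1, 47611 bases downstream of Myc, had 11.2 ± 2.13 TPM (SD, n = 4).

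Among the 15 genes of the amino acid response, the edgeR test called 1 of 13 tested, with 2 at an unadjusted p below 0.05, where 1.4% of all tested genes were called and 4.6% were at an unadjusted p below 0.05. The gene called was Atf4, the transcription factor that raises amino acid transporter and synthesis genes when amino acids are short, Slc7a5 and Slc3a2 among its known targets. Atf4 had 69.6, 92.4, 105 and 102 TPM in libraries 1 to 4, a mean of 92.3 ± 16.0 (SD, n = 4), with the low value in library 1, and its adjusted p in edgeR's goodness-of-fit test was 0.0440. The call depended on single libraries and settings. Without library 1 the adjusted p was 1.00 and without library 3 it was 0.308, while without library 2 and without library 4 it was 0.0247 and 0.00887. It was 0.0783 without the filter on low counts and 0.0590 in the second quantification, against 0.0451 with DESeq2's size factors and 0.00807 with DESeq2's dispersion trend. Eif2ak3, a kinase that leads to Atf4 translation, had 23.6 ± 2.80 TPM, and Phgdh, the first enzyme of serine synthesis, 20.5 ± 0.311 TPM (SD, n = 4).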

How the data were processed

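The 4 libraries of splenic T cell RNA, all of 1 group, were made with a directional kit and spike-ins, per the labels. Neither aligner nor quantifier is named here: they are not given in the sources used. Per the text deposited with the files, values refer to mm10 and GENCODE M21, and 2 quantifications were made (the first with the column layout of RSEM, the second with that of kallisto). Reads were assigned to the C57BL/6 reference, so reads from CAST/EiJ alleles could be lost or moved. The deposited expected counts are estimated, unnormalized counts for genes and transcripts. TPM values, as deposited, are per effective length and sum to 1000000 over all targets, short RNAs included. The deposited percent values give a transcript's share of its gene.

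Expected counts were rounded and tested with edgeR 4.0.16 in R 4.3.3 (TMM, filterByExpr, intercept only, trended dispersion, goodness-of-fit test, Benjamini-Hochberg at 0.05). DESeq2 1.42.0 was an alternative. The fit was checked on simulated counts. Spike-ins (0.299% to 0.347% of counts) and 26248 numeric identifiers stayed out of library sizes. Ratios were taken within a library on log2 TPM. Log2 CPM used a prior count of 2. Depths were 15818334, 17335895, 16439475 and 14584388 counts, and reads copied by PCR are not independent molecules, so intervals and the floor of 3 counts cover counting error only. Alternatives were another scaling, no filter, another dispersion, the second quantification, log2(TPM + 1), coding transcripts only, the protein-coding total and each library left out. Named were all members, the top 3 by mean TPM and every gene called in 5 related lists. Also named were some called cell type markers, neighbours, and most transcripts with at least 10% of a member. Mycl, Slc43a2 and 4 light chains were named after their values were seen. Members and lists were chosen with earlier results of these data known. Slc66a1, Miz1, Mycnos and Ahsp were not matched to an identifier. Transcript sequences and structures were read from GENCODE M21.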

Additional observations from a re-analysis of the deposited data

Results flagged for a closer look

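Of 41 sets of 4 values examined, 6 held a library far from the other 3 by Dixon's criterion, and chance alone marks about 1 set in 20. The sets share libraries and some genes, so they are not independent and the 6 cannot be set directly against that rate. Library 1 was low in TPM for Slc3a2 (59.8), Myc (31.9) and Max (64.8). This depended on the scale. On log2 CPM scaled by TMM, library 1 deviated from the mean by -0.033 for Slc3a2, -0.120 for Myc and -0.011 for Max. Library 4 was lower than library 1 on that scale for Slc3a2 (-0.124) and Max (-0.015). Library 1 was high in the log2 ratio of Myc to Mycn (8.64), where Mycn had 3 counts. It was also high in the log2 ratio of Max to Myc (1.02), which shares the Myc value already given. Library 3 was low in the share of Max-202 in the pair Max-202 and Max-201 (20.3%), and in the second quantification the low library was library 2 (12.7%).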

How the results depend on the processing

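Samples could not be paired between conditions because the 4 libraries form 1 group, while the ratios paired genes within a library. All 7 ratios kept their direction with log2(TPM + 1), in the second quantification and with each library left out. With protein-coding transcripts alone, 3 reversed: Slc38a2 to Slc38a1 (0.44), Slc1a5 to Slc7a5 (-0.10) and Max to Myc (-0.039), because intron-retaining and other non-coding transcripts were left out by construction. The count of variable genes was 279 without the filter on low counts, where more genes are tested, and 116 to 146 with 1 library left out, where fewer libraries enter. It was 180 with DESeq2's size factors, 180 with its dispersion trend and 192 in the second quantification, and the count of variable members was 0 in every one of these. Mean TPM moved by more than 1 SD in the second quantification for 8 of 10 members, most for Slc3a2 (117 TPM), and the cause was not tested. It moved for all 10 over the protein-coding total, which rescales every gene, and for 0 with a library left out. Mycn, with 3 to 12 counts, is limited by depth.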

Other observations

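Markers of dividing cells, not described above, were mixed in level. Of genes of DNA replication, Pcna (80.6 TPM on average), Mcm2 (21.5 TPM) and Mcm3 (21.3 TPM) were near or above the 20.0 TPM of Slc7a5, while Tyms (3.71 TPM) and Rrm2 (1.81 TPM), which supply nucleotides for DNA synthesis, and the mitotic genes Mki67 (2.54 TPM), Cdk1 (1.26 TPM) and Ccnb1 (0.910 TPM) were far below it. The edgeR goodness-of-fit test called 0 of the 14 proliferation genes tested, with 0 at an unadjusted p below 0.05. Over all tested genes these shares were 1.4% and 4.6%, so less than 1 adjusted call is expected among 14. These genes were picked for mention after their values were seen.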
